A study of Mus musculus with 16 samples.

Results

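RNA held on ribosomes tagged by a virus aimed at astrocytes was compared with RNA of the whole striatum in the same control mice. The data are the 8 libraries whose treatment label is Control, of 16 libraries in the series. They come from 4 mice, and each mouse gave an input library and a ribosome precipitate (IP) library, so that 4 input and 4 IP libraries were compared in pairs joined by the mouse number in the titles. All 20730 gene rows were used, and 16095 genes passed the filter on low reads and were tested.

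The mice were adult C57BL/6N animals, and whole striata were taken. Each control mouse had received a pair of adeno-associated viruses (AAV). The RiboTag AAV was aimed at astrocytes and carried Rpl22 with a hemagglutinin (HA) tag. The companion AAV carried a control protein that the labels do not name. The other 8 libraries come from mice that received the same RiboTag AAV with an AAV for hPMCA2w/b, a human calcium pump that lowers calcium signals (called PMCA mice here). Input RNA was purified from cleared lysate and IP RNA from ribosomes pulled down by the HA tag. The labels do not name the promoter meant to limit the tagged protein to astrocytes, nor do they give sex, exact age or time after injection.

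A ribosome precipitate holds messenger RNA that is being translated, or is at least bound by ribosomes, in the cells that carry the tagged ribosomal protein. Astrocytes of the striatum clear glutamate and GABA, buffer potassium, supply lipids and serine, and surround synapses and vessels. Most neurons around them are medium spiny projection neurons, with a minority of interneurons that release acetylcholine, nitric oxide or neuropeptides. Between mice, a lower level in bulk RNA can come from fewer cells of a type or from less RNA per cell, and these cannot be told apart. The input and IP libraries of a mouse come from the same tissue. How cell numbers and RNA per cell enter a fold of IP over input was not tested. Which cells carried the tag, how strongly each message was bound by ribosomes and how much untagged RNA was carried over were not tested. All levels are log2 CPM (read counts relative to the library total) scaled by the authors, so each fold is a difference in share of the library and not in molecules per cell.

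Input libraries held 33.1 to 40.2 M reads (36.6 ± 4.04, SD, n = 4) and IP libraries 46.8 to 58.5 M reads (53.4 ± 4.92). The top 10 genes by reads held 3.42% to 3.86% of an input library and 6.32% to 8.02% of an IP library. Malat1 took the largest share in input (1.09% ± 0.134) and Slc1a2 in IP (2.19% ± 0.40), shares that also depend on gene length. Mouse 4 stood apart in sex-linked RNA. Xist, the RNA of X inactivation in females, lay in this mouse at 6.62 log2 CPM in input and 4.98 in IP, against -2.55 to -0.42 and -2.36 to -1.32 in the other mice, and its Y-linked Ddx3y lay at -1.64 and -3.72 against 6.35 to 6.52 and 7.09 to 7.25. Its number also differs between title (Y257) and source name (Y227) in both of its libraries, so the pair is joined either way. Over all 4 mice Ddx3y was not called (log2 fold 0.03, adjusted p = 0.94), and without mouse 4 it was higher in IP (0.74, adjusted p = 1.0e-05). The oligodendrocyte list, Mbp and Slc9a9 also turn on this mouse and are given with and without it.

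RNA of the gene for the tagged ribosomal protein was higher in every precipitate. Rpl22 (chromosome 4, 152324436 to 152334082, GRCm38.p6) lay at 7.77, 7.65, 7.49 and 7.48 log2 CPM in the inputs of mice 1 to 4 and at 9.74, 9.92, 9.92 and 9.62 in their IP libraries. All 4 IP libraries lay above all 4 inputs, as they did in 37% of all genes tested. The log2 fold was 2.20, with an SE of 0.078 and an adjusted p of 2.52e-09 (limma, with the mouse as a block). Reads of the tagged and the endogenous gene stand in the same row. Its paralog Rpl22l1, which can take the place of Rpl22 in the ribosome, went the other way. It lay at 5.25, 5.72, 5.51 and 4.97 in input and at 3.58, 3.46, 3.45 and 3.12 in IP, and its log2 fold was -1.96 (SE 0.093, adjusted p = 1.83e-08). Atp2b2, the mouse gene of the pump used in the other group of mice, fell by 0.77 on the log2 scale in these mice (SE 0.092), and Itpr2, an IP3 receptor that releases calcium from internal stores, rose by 2.49 (SE 0.12).

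Astrocyte genes rose, most projection neuron, microglial and endothelial genes fell, and the other cell type lists went either way. Over all genes tested, 6432 were higher in IP (40% of those tested) and 6353 were lower (39.5%) at an adjusted p under 0.05. A fold of at least 2 was reached by 2686 of the higher genes (16.7% of those tested) and 2809 of the lower genes (17.5%). The balance depends on the filter: with a mean of at least 1 log2 CPM required, 2189 genes were at least 2-fold higher and 1352 at least 2-fold lower. Of the protein-coding genes tested, 298 passed the filter through the inputs alone and 49 through IP alone. A fold of at least 8 was reached by 129 higher and 528 lower genes, and a fold of at least 16 by 1 higher and 302 lower genes, while a fold of at least 32 was reached by 0 higher and 104 lower genes. Of the 12785 genes called, 12534 moved the same way in all 4 mice. The median fold over all genes tested was -0.0030 on the log2 scale with the authors' scaling. With total reads in its place the median was -0.28 and 35.1% of the calls, not 50.3%, were rises, so a fold within about that distance of 0 depends on the scaling.

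**Figure D1:**
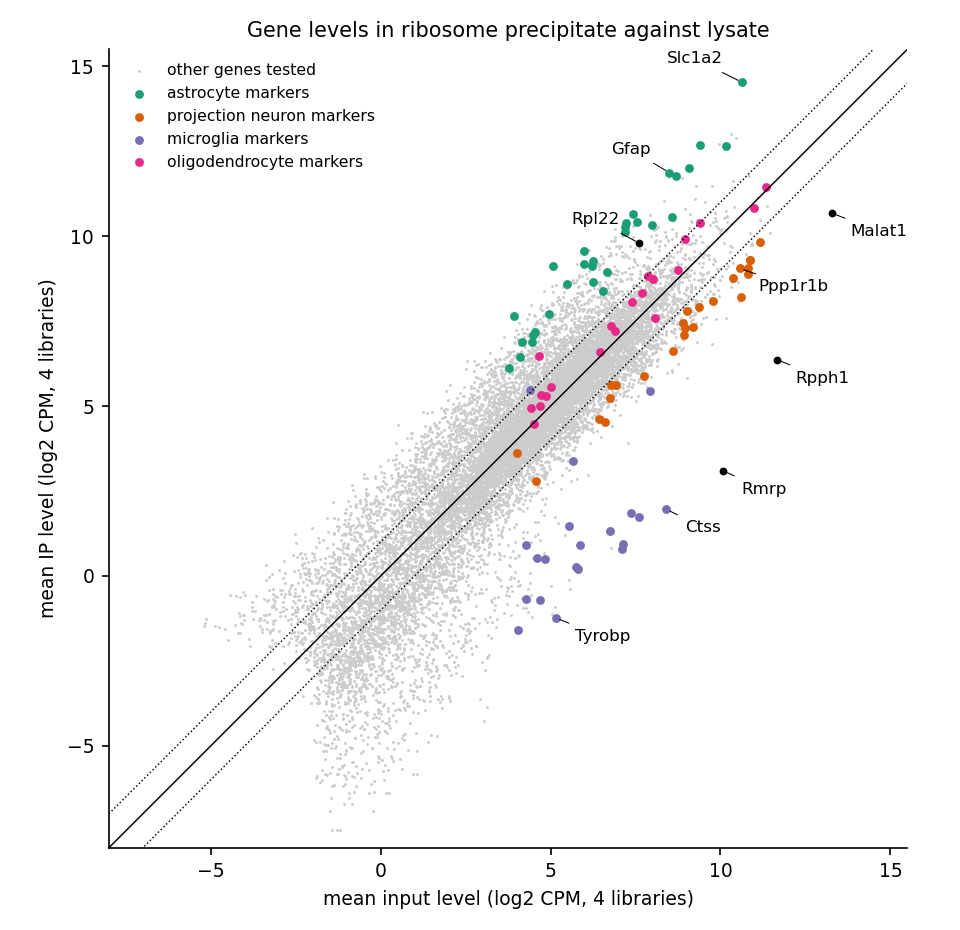
Mean level in the 4 IP libraries (log2 CPM) against mean level in the 4 input libraries for the genes tested, with markers of 4 cell types in colour and single genes named; the solid line marks equal levels and the dotted lines a 2-fold difference. Astrocyte markers lie above the upper dotted line and projection neuron and microglia markers mostly below the lower one, and Rmrp lies far below it.

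The largest rises and falls are named among genes measured on both sides, with a mean of at least 3 log2 CPM in the higher and 0 in the lower fraction and the same sign in all 4 mice. The 12 largest rises were led by genes of ion and glutamate handling and by transcription factors. Atp1b2 (chromosome 11, 69599728 to 69605978), the beta subunit of the astrocyte sodium pump, lay at 5.21, 4.96, 5.12 and 4.99 log2 CPM in the inputs and at 8.87, 9.14, 9.34 and 9.18 in the IP libraries. Its log2 fold was 4.06 (SE 0.088, adjusted p = 3.84e-10), and it was the gene with a rise of more than 16-fold. Slc1a2 (chromosome 2, 102658239 to 102790784), the main glutamate transporter of astrocytes, lay at 10.71, 10.65, 10.66 and 10.49 in input and at 14.52, 14.78, 14.71 and 14.13 in IP. Its rise was 3.91 (SE 0.13, adjusted p = 2.13e-09), with the lowest difference in mouse 4 (3.64) and the highest in mouse 2 (4.13). Kcnj10, the inward-rectifier potassium channel that takes up potassium, lay at 5.90, 5.90, 5.97 and 6.14 in input and at 9.27, 9.57, 9.73 and 9.70 in IP (rise 3.59, SE 0.070).

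Among the transcription factors, Gli2, an effector of Hedgehog signalling, was near the limit of detection in lysate. Its inputs lay at 0.93, -0.23, 0.50 and 0.87 log2 CPM, from 31 to 81 reads, and its IP libraries at 4.44, 4.39, 4.6 and 4.36, from 878 to 1287 reads (rise 3.93, SE 0.18, adjusted p = 1.27e-08). Tead1, the DNA-binding partner of Yap1 in the Hippo pathway, gave the most even difference of these genes, 3.72, 3.77, 3.81 and 3.84 in mice 1 to 4 (mean 3.79, SE 0.063). Sox9, which specifies astrocytes, rose by 3.72 (SE 0.084), from 4.14, 3.81, 3.77 and 4.01 to 7.54, 7.74, 7.65 and 7.68. The nuclear receptor Rorb rose by 3.56 and Tfcp2l1, another transcription factor, by 3.58. The other large rises were of secreted or surface proteins and of an interferon-induced gene. Gpc4, a glypican that astrocytes secrete to promote synapse formation, rose by 3.59, A2m, a protease inhibitor, by 3.59, Thbs4, a thrombospondin of the matrix, by 3.57, and Gbp5, an interferon-induced GTPase, by 3.54. In these genes all 4 IP libraries lay above all 4 inputs, as they did in 37% of all genes tested, and a choice by large fold leaves little room for overlap.

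**Figure D2:**
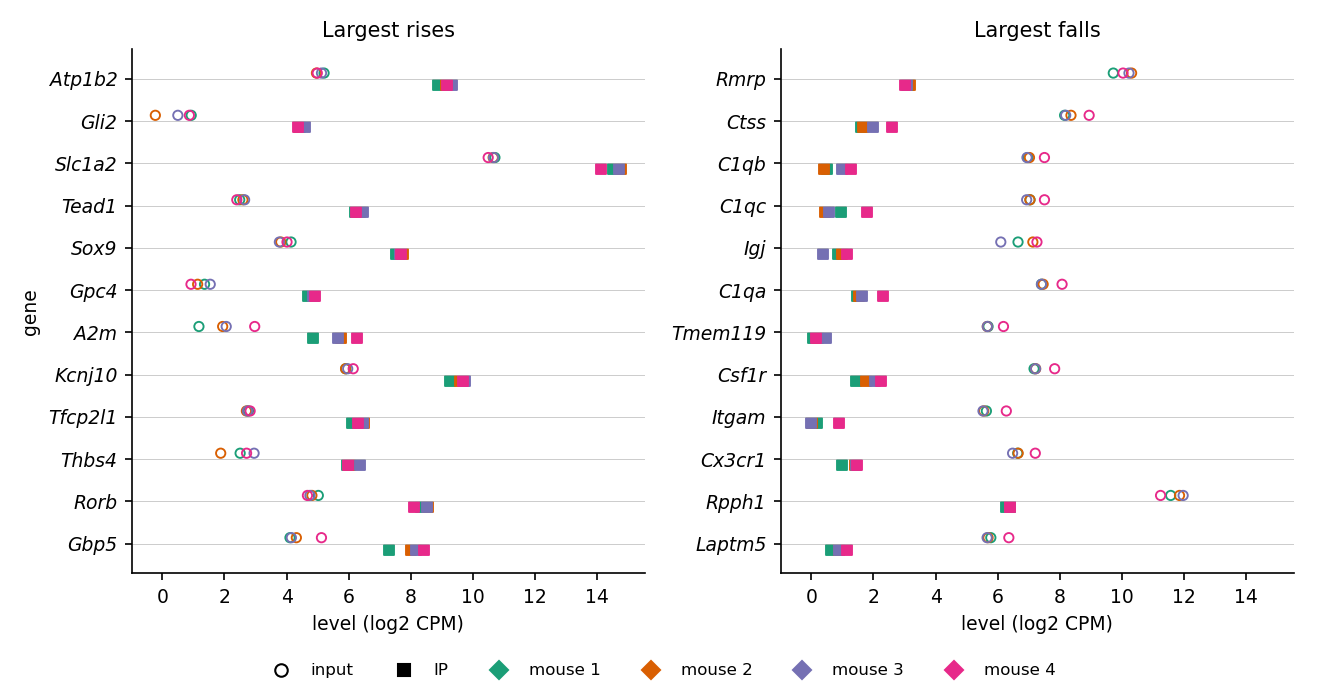
Level (log2 CPM) in each library for the 12 genes of largest rise (left) and of largest fall (right); open circles are inputs, filled squares IP libraries and colours the 4 control mice. The genes were chosen by fold, so the gap between IP and input follows from the choice. The mouse 4 inputs sit to the right of the others for most of the microglial genes on the right.

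The astrocyte list moved as a whole. All 30 of its genes were tested, rose and did so by at least 2-fold, with a median fold of 2.92 on the log2 scale and medians of 2.69, 3.06, 3.10 and 2.82 in mice 1 to 4. Their summed level went from 6838 to 7092 CPM in input to 55359 to 71910 CPM in IP. Gfap, the intermediate filament of reactive and fibrous astrocytes, lay at 8.27, 8.25, 8.41 and 9.03 in input and at 11.31, 11.86, 12.07 and 12.23 in IP (rise 3.38, SE 0.11). Aldh1l1, a folate enzyme that marks astrocytes, lay at 5.97, 5.83, 5.95 and 6.23 in input and at 8.98, 9.28, 9.31 and 9.11 in IP (rise 3.18, SE 0.091). At the lower end stood S100b, a calcium-binding protein that oligodendrocytes express too (rise 1.84, SE 0.066), Slc4a4, a sodium bicarbonate cotransporter (1.97, SE 0.086), and Mfge8, an opsonin (2.29, SE 0.069). Glul, which makes glutamine from glutamate, rose by 2.50, and the water channel Aqp4 by 3.23. Mouse 1 had the lowest median of the 4, here and in most of the rising lists described further on.

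**Figure D3:**
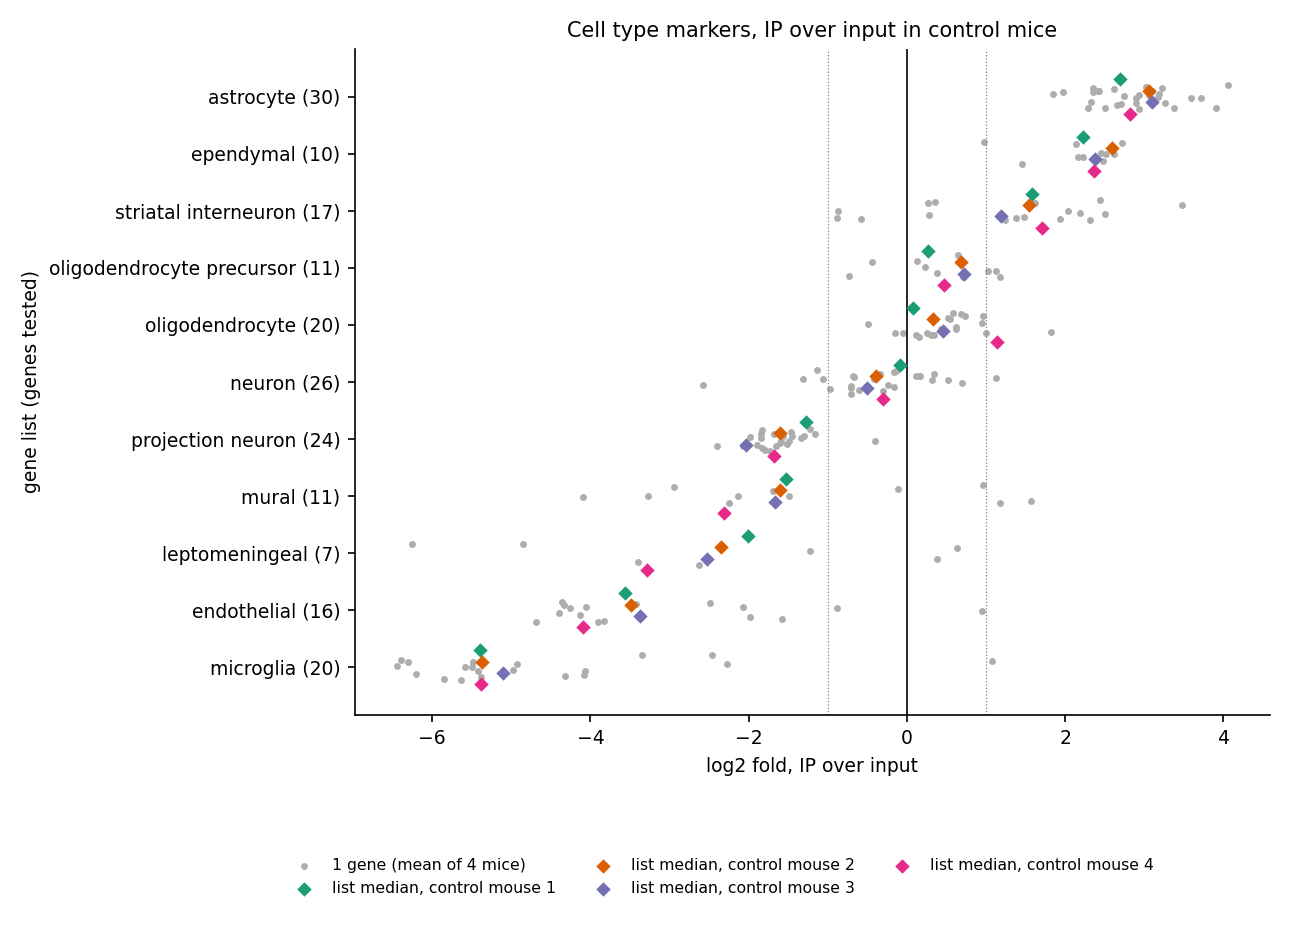
Log2 fold of IP over input for each marker gene tested (grey points, mean of 4 mice) and the median of each list in each control mouse (coloured diamonds); the dotted lines mark a 2-fold difference. Astrocyte, ependymal and most interneuron markers lie to the right, the other neuronal lists straddle or lie left of 0, and microglial and endothelial markers lie farthest left.

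Most genes of lipid handling rose. In the list of lipid carriers and fatty acid handling, 29 of 34 genes rose by at least 2-fold and 1 fell by at least 2-fold, with a median of 2.38. The named rises were Acsm5, an acyl-CoA synthetase (3.46, SE 0.35, from inputs of -3.39 to -1.70 log2 CPM), Acot11, a thioesterase (3.29, SE 0.077), and Acsbg1, an acyl-CoA synthetase of glia (3.19, SE 0.084). Apoe and Clu, the lipid carriers that astrocytes secrete, rose by 2.70 and 2.93, Cpt1a, which admits fatty acids to mitochondria, by 3.02, and Ppara, the nuclear receptor that controls fatty acid oxidation, by 2.91. Lpl, a lipase that releases fatty acids, fell by 1.58 on the log2 scale and Fabp3, a fatty acid carrier of neurons, by 0.70.

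The serine, glycine and one-carbon list was split. Of its 27 genes, 13 rose by at least 2-fold and 2 fell by at least 2-fold, with a median of 0.70 that was 1.13 with a mean of at least 1 log2 CPM required (24 genes). The enzymes that make serine from a glycolytic intermediate all rose: Phgdh by 2.50, Psat1 by 2.04 and Psph by 1.82. Gldc, the decarboxylase of the glycine cleavage system, lay at 4.71, 4.68, 4.62 and 4.76 in input and at 7.80, 8.05, 8.01 and 7.73 in IP (rise 3.21, SE 0.076). Its partners Amt and Gcsh rose by 1.90 and 1.04, and Sardh, which breaks down sarcosine, by 2.91. Srr, the racemase that makes D-serine, fell by 0.29 on the log2 scale, and Dao, which degrades D-serine, fell by 1.47. The call for Dao was lost without mouse 2 (adjusted p = 0.0536) and without mouse 4 (adjusted p = 0.0634).

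Enzymes of aldehydes and retinoids were higher in 16 of 20 genes tested of 21 listed, 14 of them by at least 2-fold (median 1.85). Aldh1a1 rose by 2.84 and Aldh4a1, which degrades proline, by 2.54, as did Adhfe1, an alcohol dehydrogenase (2.59). Aldh1a2, a retinoic acid synthase of the meninges, fell by 4.51 on the log2 scale (SE 0.41), from 0.13 to 0.86 in input to -4.47 to -3.33 in IP. The list for bicarbonate, acid and lactate transport had 9 of 21 genes higher by at least 2-fold and 3 lower. Its median of 0.22 turned to -0.059 with total reads as the scaling. Within it, Slc9a3r1, a scaffold of membrane transporters, rose by 2.93, Car8 by 2.42 and the monocarboxylate transporter Slc16a1 by 1.27, whereas Slc16a7, the neuronal monocarboxylate transporter, fell by 0.94 on the log2 scale, Slc16a3 by 1.12, Car12 by 1.34 and Car4, a carbonic anhydrase of capillaries, by 3.0.

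**Figure D4:**
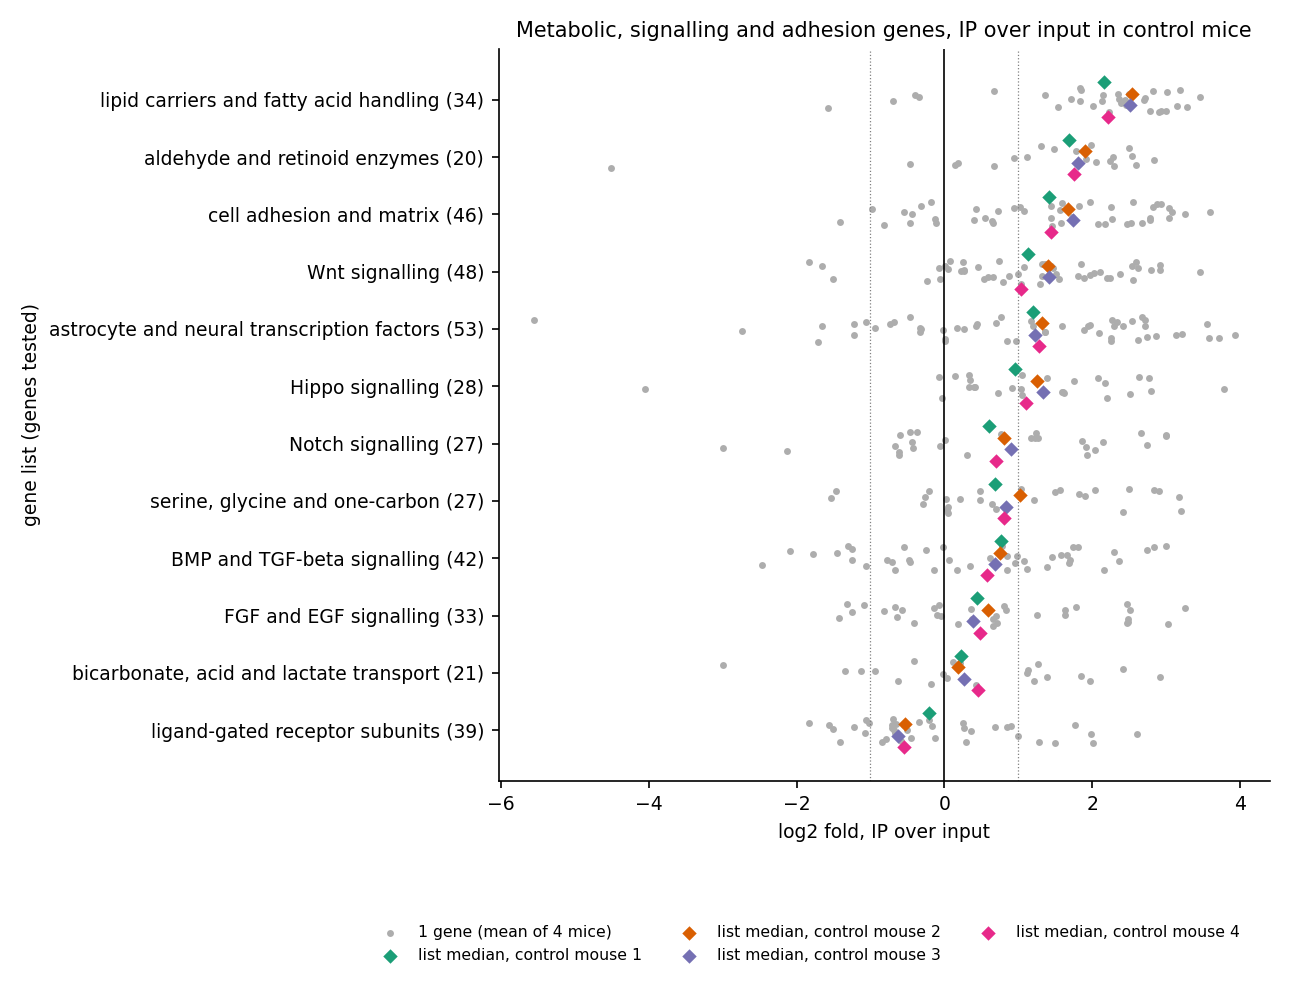
Log2 fold of IP over input for the genes tested of 12 metabolic, signalling, receptor, transcription factor and adhesion lists (grey points, mean of 4 mice), with the median of each list in each control mouse (coloured diamonds). Lipid genes have the highest medians, ligand-gated receptor subunits are the list whose 4 medians all lie below 0, and every list has genes on both sides of 0.

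Notch receptors rose while most of their ligands did not. In the Notch list, 13 of 27 genes rose by at least 2-fold and 2 fell by at least 2-fold (median 0.76, or 1.20 over 24 genes with a mean of at least 1 log2 CPM). The receptor Notch1 lay at 5.13, 4.85, 4.85 and 5.32 in input and at 7.92, 8.10, 8.12 and 8.02 in IP (rise 3.0, SE 0.097, adjusted p = 1.49e-09). Notch2 rose by 3.0 and Notch3 by 2.74, and Notch4, the receptor of endothelium, fell by 0.44 on the log2 scale. Of the Delta and Jagged ligands, Dll4 fell by 2.14, Dll1 by 0.61, Jag2 by 0.61 and Jag1 by 0.43, and Dll3 was not called (0.30). Dner, a ligand of another kind, rose by 1.93. The targets Hes1, Hes5, Hey1, Hey2 and Heyl rose by 1.26, 1.18, 1.24, 2.04 and 1.92. Lfng, a glycosyltransferase that modifies Notch receptors, rose by 2.15, and its relatives Mfng and Rfng fell by 2.99 and 0.59.

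In the Wnt list, 27 of 48 genes rose by at least 2-fold and 3 fell by at least 2-fold (median 1.30). Of the 10 Frizzled receptors, 9 rose by at least 2-fold, led by Fzd10 (2.92) and Fzd2 (2.79), and Fzd3 fell by 0.23 on the log2 scale. Lgr6, a receptor of R-spondins, lay at 0.75, 0.40, 0.01 and 0.62 in input and at 3.58, 3.97, 4.00 and 4.04 in IP (rise 3.45, SE 0.17). Secreted modulators rose as well, among them Dkk3 (2.92), Sfrp1 (2.62) and Sfrp5 (2.60). The ligands differed from each other: Wnt7b rose by 2.55 and Wnt7a by 1.51, and Wnt2 fell by 1.83 on the log2 scale. The nuclear factors Tcf7l2 and Tcf7l1 rose by 2.38 and 2.24, while Tcf7 fell by 1.51, and the receptor kinase Ror2 rose by 2.20 while Ror1 fell by 1.66.

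Growth factor receptors were among the larger rises of their list. Of 33 FGF and EGF genes tested of 34 listed, 11 rose and 4 fell by at least 2-fold (median 0.66). Egfr lay at 4.35, 4.28, 4.22 and 4.38 in input and at 7.44, 7.67, 7.62 and 7.51 in IP (rise 3.26, SE 0.068, adjusted p = 3.38e-10). Fgfr3 rose by 3.03, Fgfr1 by 2.51, Erbb2 by 2.47 and Fgfr2 by 1.63. The ligands Fgf2 and Fgf1 rose by 2.49 and 2.48, and Fgf9, Fgf10 and Tgfa fell by 1.32, 1.08 and 1.25, as did the intracellular Fgf14 (1.42). In the BMP and TGF-beta list, 16 of 42 genes rose and 8 fell by at least 2-fold (median 0.70). BMP receptors and their targets lay among the rises, with Bmpr1b at 2.74, Bmpr1a at 1.68, Id1 at 1.70, Id2 at 2.36 and Id3 at 2.29, next to the secreted Gdf10 (3.0) and the binding protein Ltbp1 (2.83). TGF-beta receptors lay among the falls, with Tgfbr1 at -1.46, Tgfbr2 at -1.26 and the endothelial Acvrl1 at -1.78. Tgfb1 itself fell by 2.46 on the log2 scale (SE 0.18), while Tgfb2 rose by 1.80.

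Of 28 Hippo genes, 25 were higher, 17 of them by at least 2-fold (median 1.16). The coactivators Yap1 and Wwtr1 rose by 2.17 and 2.51, the giant cadherin Fat1 by 2.77, the scaffold Amot by 2.80 and the target Cyr61 by 2.64. Tead4 was the listed factor that fell (by 4.05, SE 0.73), from inputs of -1.46 to -1.0 log2 CPM to IP libraries of -7.47 to -3.87, the lowest of which holds no reads. With total reads as the scaling, 19 Hippo genes were higher and 4 lower.

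Of 53 astrocyte and neural transcription factors, 28 rose and 7 fell by at least 2-fold (median 1.20). Besides Gli2, Sox9, Tfcp2l1 and Rorb, the rises held Nr2e1, an orphan receptor of neural stem cells (3.21), Nfia (3.14), which drives astrocyte formation, and its relatives Nfib (2.54) and Nfix (2.34), as well as Sox2 (2.26) and Lhx2 (2.62). The falls were of factors of other cells: Spi1 (-5.56) and Runx1 (-2.74) of myeloid cells, and Dlx6 (-1.71), Meis2 (-1.65) and Bcl11b (-1.23) of striatal neurons.

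Adhesion and matrix genes rose in the majority, 29 of 46 by at least 2-fold with 1 that fell by at least 2-fold (47 listed, median 1.57). Gpc4, Gpc5 and Gpc6 rose by 3.59, 2.93 and 3.04, Tnc, a matrix glycoprotein, by 3.26, Ptprz1, a receptor phosphatase, by 3.08, and the proteoglycans Bcan and Ncan by 2.88 and 2.25. Basement membrane genes went both ways. Nid1, Lama4, Col4a1 and Col4a2 fell by 1.41, 0.97, 0.32 and 0.44 on the log2 scale, while Lamb2, Lama2, Col4a5, Nid2, Lamc1 and Lama1 rose by 2.82, 2.52, 2.47, 1.46, 0.55 and 0.40.

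Ligand-gated receptor subunits had a negative median (-0.51 over 39 genes tested of 40 listed). Of these, 7 rose (17.9%) and 8 fell (20.5%) by at least 2-fold, near the shares over all genes tested (16.7% and 17.5%). The NMDA receptor subunit Grin2c lay at 5.25, 5.30, 5.45 and 5.34 in input and at 7.74, 8.11, 8.14 and 7.80 in IP (rise 2.61, SE 0.068). Grin3a rose by 2.01, the GABA receptor subunits Gabrg1 and Gabrb1 by 1.98 and 1.77, and the ATP-gated channel P2rx7 by 1.5. Grin1, the subunit that all NMDA receptors need, fell by 0.66 on the log2 scale, Grin2a by 1.06 and Grin2b by 0.68. Gabrd, Gabra5 and Gabra4 fell by 1.83, 1.56 and 1.5, and Gria2, an AMPA receptor subunit, by 1.22.

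Microglial RNA was lowest in IP relative to input of the cell types listed. Of 20 microglial genes, 19 fell by at least 2-fold and Sall1 rose, with a median fold of -5.40 and medians of -5.40, -5.37, -5.11 and -5.38 in mice 1 to 4. Their summed level went from 1583 to 2392 CPM in input to 115 to 143 CPM in IP. Ctss (chromosome 3, 95526786 to 95556405), a lysosomal protease, lay at 8.15, 8.36, 8.19 and 8.94 log2 CPM in input and at 1.6, 1.67, 1.99 and 2.59 in IP. Its log2 fold was -6.45 (SE 0.081, adjusted p = 1.52e-11). Tyrobp, an adaptor of microglial receptors, was left with 12 to 32 reads in an IP library, against 1167 to 1888 in an input. The complement genes C1qa, C1qb and C1qc fell by 5.85, 6.31 and 6.2.

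Within the list the falls were uneven. Tmem119, a microglial membrane protein, fell by 5.58, Csf1r, the receptor for a growth factor that microglia need, by 5.49, and Itgam, an integrin, by 5.48. Cx3cr1, the fractalkine receptor, fell by 5.42 on the log2 scale, and Laptm5, a lysosomal protein, fell by 4.97. P2ry12, a receptor for ADP, lay at 5.54, 5.74, 5.52 and 5.85 in input and at 3.19, 3.58, 3.24 and 3.52 in IP, and fell by 2.28 (SE 0.064). Sall1, a transcription factor used as a microglial marker, rose by 1.08 (SE 0.11), with inputs at 4.47, 4.05, 4.26 and 4.82 and IP libraries at 5.30, 5.43, 5.67 and 5.52, and its fold was 0.98 without mouse 2, 0.97 without mouse 3 and 0.80 with total reads. Igj, the joining chain of secreted antibodies, is not on the list and fell as far as the complement genes (5.95, SE 0.091). In 6 microglial genes (C1qa, C1qb, Csf1r, Itgam, Laptm5 and Tmem119) the input of mouse 4 stood clear above those of the other mice.

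Most endothelial genes fell as well. Of 16 endothelial genes, 14 fell by at least 2-fold (median -3.87), and Slc2a1, the glucose transporter of brain endothelium and astrocytes, rose by 0.94 (SE 0.055). Cldn5, a tight junction protein, lay at 4.29, 3.96, 3.64 and 4.51 in input and at -0.13, -0.86, -0.67 and 0.61 in IP, a fall of 4.36 (SE 0.15). Emcn, a surface sialoglycoprotein, fell by 4.69 and Cdh5, the endothelial cadherin, by 4.40, the latter to 3 to 18 reads in an IP library. Among 11 mural genes, 7 fell and 2 rose by at least 2-fold (median -1.69). With a mean of at least 1 log2 CPM required, 7 mural genes were tested, 3 of which fell and 2 rose by at least 2-fold (median -0.11). Higd1b fell by 4.09, Kcnj8, a potassium channel of pericytes, by 3.27 and Vtn by 2.94, whereas Pdgfrb rose by 1.57 and Cspg4, which precursors of oligodendrocytes also express, by 1.18. Leptomeningeal genes fell by at least 2-fold in 5 of 7 cases (median -2.63), whereas the 2 genes with a mean of at least 1 log2 CPM were both higher (median 0.51). Slc6a13, a GABA transporter of the meninges, fell by 6.26 (SE 0.61) and Dcn by 4.85, both with a mean under 1 log2 CPM. Col1a2, above that mean, rose by 0.63. Of 5 blood genes, 3 were among the gene rows and Alas2 was the gene tested, with a fold of -2.33.

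Striatal neurons split by type. Of 24 projection neuron genes, all were lower, 23 of them by at least 2-fold, with a median of -1.63. The medians of the 4 mice ran from -2.04 in mouse 3 to -1.27 in mouse 1, and the summed level went from 18810 to 19800 CPM in input to 4650 to 8325 CPM in IP. Arpp21, a phosphoprotein of spiny neurons, lay at 10.57, 10.76, 10.60 and 10.50 in input and at 8.72, 8.27, 7.85 and 7.97 in IP (fall 2.40, SE 0.12). Adora2a, the adenosine receptor of indirect-pathway neurons, fell by 1.98, and Ppp1r1b, which encodes the phosphatase inhibitor DARPP, by 1.52. Drd1a and Drd2, the dopamine receptors of the direct and indirect pathway, fell by 1.83 and 1.31. Isl1, a transcription factor that cholinergic interneurons share, was the member that stayed under 2-fold (-0.40, SE 0.083).

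Interneuron genes mostly rose, 11 of 17 by at least 2-fold, with a median of 1.47. Nos1, the nitric oxide synthase of a sparse interneuron class, lay at 5.15, 5.04, 4.96 and 5.05 in input and at 8.54, 8.56, 8.54 and 8.47 in IP. Its rise of 3.48 (SE 0.055, adjusted p = 7.15e-11) was within the range of the astrocyte list. Npy and Sst, peptides of the same class, rose by 1.94 and 2.03. The genes of acetylcholine neurons rose by similar amounts: Chat, which makes acetylcholine, by 2.50 (SE 0.051, from 4.57 to 4.71 in input to 7.06 to 7.22 in IP), the vesicle transporter Slc18a3 by 2.19, the choline transporter Slc5a7 by 2.31 and the vesicular glutamate transporter Slc17a8 by 2.44. Pvalb, the calcium buffer of fast-spiking interneurons, fell by 0.87 (SE 0.083), and Crh and Cox6a2 fell by 0.89 and 0.58. Under total reads as the scaling 10 interneuron genes were at least 2-fold higher and 2 at least 2-fold lower. The summed level of the list was 407 to 459 CPM in input and 1539 to 1624 in IP. Whether tagged Rpl22 was present in interneurons was not tested here.

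Genes that many neurons share lay between these. Of 26 such genes, 16 were lower and 5 higher, with 4 and 1 of them past 2-fold (median -0.32). Rbfox3, the nuclear antigen of mature neurons, fell by 1.32 and Nefm, a neurofilament, by 1.14. Elavl2 and Elavl4, neuronal RNA-binding proteins, rose by 1.13 and 0.70, and the synaptic Syn1 by 0.52.

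Ependymal genes rose in 10 of 10 cases, 9 of them by at least 2-fold (median 2.34). Foxj1, the switch gene of motile cilia, lay at 4.57, 4.13, 4.18 and 4.75 in input and at 6.90, 6.92, 6.95 and 7.34 in IP (rise 2.62, SE 0.078). Dnah6, a dynein of cilia, rose by 2.72 and Hdc, which makes histamine, by 2.52.

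Of the cell type lists with at least 10 genes, the oligodendrocyte list differed most between the mice. The median fold of its 20 genes was 0.07, 0.33, 0.45 and 1.14 in mice 1 to 4, and their summed level in IP ran from 7071 to 16187 CPM, against 7206 to 8560 in input. Overall 13 genes were higher, Myrf by at least 2-fold, and 1 was lower (median 0.53). Without mouse 4 the counts were 11 higher and 3 lower with a median of 0.34, and with total reads as the scaling 9 higher and 2 lower. Myrf, the master factor of myelin genes, lay at 4.82, 4.50, 4.63 and 4.68 in input and at 6.00, 6.14, 6.50 and 7.29 in IP (rise 1.82, SE 0.17). Mbp, which encodes a main protein of myelin, did not pass the test, with differences of -0.59, -0.36, -0.14 and 0.51 in mice 1 to 4. The Mbp fold over all 4 mice was -0.15, and it passed the test at -0.36 without mouse 4 (adjusted p = 0.0298) and at -0.42 with total reads (adjusted p = 0.0259). Oligodendrocyte precursor genes were higher in 8 and lower in 2 of 11 cases (median 0.64), with Cspg4 and Matn4 up by 1.18 and 1.12 and Lhfpl3 down by 0.74.

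The noncoding RNAs listed were lower in IP. Rmrp (chromosome 4, 43492785 to 43493059), the RNA of an RNA-processing ribonuclease, lay at 9.72, 10.31, 10.23 and 10.03 in input and at 3.12, 3.18, 3.08 and 3.0 in IP, a log2 fold of -6.98 (SE 0.086, adjusted p = 1.52e-11) and the largest fall among genes measured on both sides. Ly6c2, a surface protein of leukocytes, fell by 7.32 on the log2 scale (SE 0.61), to a mean of -4.28 log2 CPM in IP, and was picked after its values were seen. Rpph1, the RNA of ribonuclease P, fell by 5.29 (SE 0.11). Of 10 nuclear noncoding RNAs listed, all were lower, 8 by at least 2-fold (median -2.59). Malat1, a long RNA of nuclear speckles, lay at 12.99, 13.39, 13.38 and 13.30 in input and at 10.57, 10.84, 10.94 and 10.34 in IP (fall 2.59, SE 0.13). Meg3, Rian and Mirg, imprinted transcripts of 1 locus on chromosome 12, fell by 2.92, 3.20 and 3.33.

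By annotated class, 384 of 780 long noncoding RNA genes tested fell by at least 2-fold and 62 rose by at least 2-fold (median -0.99). Of 15013 protein-coding genes, 2273 fell and 2598 rose by at least 2-fold, with a median of 0.03. That median turned to -0.24 with total reads and to -0.013 with no filter on low values. The filter was passed through the inputs alone by 53 long noncoding genes and through IP alone by 7. Of 13896 protein-coding genes above the filter in all 8 libraries, 1588 fell and 2389 rose by at least 2-fold. Of 551 such long noncoding genes, 244 fell and 44 rose by at least 2-fold. A long noncoding gene that went the other way was 5930403L14Rik, which rose by 3.08 on the log2 scale (SE 0.071) and was picked after its values were seen. Of 107 snoRNA gene rows 37 were tested, and 19 of these passed the filter in the inputs alone, so their fold had to be low. Of the 4 snoRNA genes above the filter in all 8 libraries, 2 fell and 1 rose by at least 2-fold. Likewise 62 of 714 miRNA gene rows were tested, 27 of them through the inputs alone, and 3 of the 12 above the filter in all libraries fell by at least 2-fold while 2 rose. Clustered histone genes were lower in 50 of 55 cases tested (61 rows), 45 of them by at least 2-fold, with a median of -1.58. The histone genes that rose, named after their values were seen, were Hist1h2bc (1.25), Hist2h2be (0.70), Hist1h1c (0.52) and Hist1h1e (0.42).

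**Figure D5:**
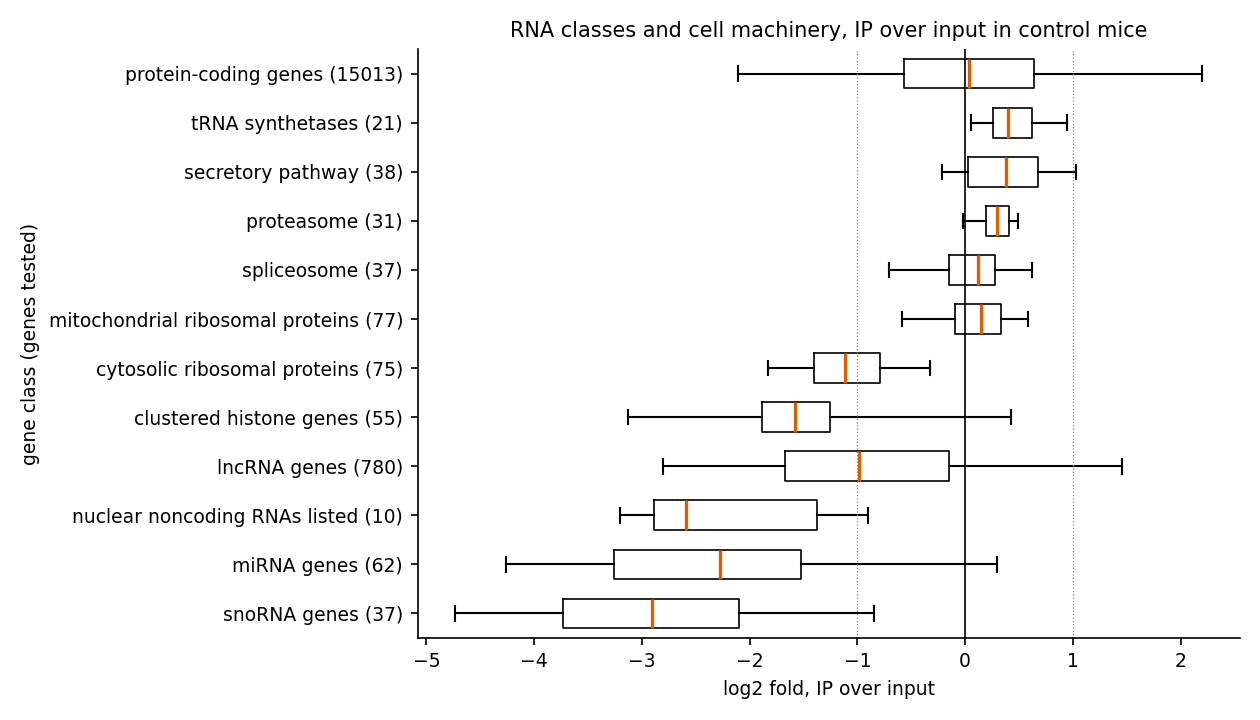
Log2 fold of IP over input by gene class: boxes span the quartiles over genes, orange lines the medians and whiskers the 5th to 95th percentile, with the number of genes tested in brackets. Cytosolic ribosomal protein genes have their whole box below 0 (median -1.12) and mitochondrial ones centre near 0 (0.15). The noncoding classes have medians of -0.99 and lower, but 19 of 37 snoRNA and 27 of 62 miRNA genes passed the filter through the inputs alone.

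Messenger RNAs of cytosolic ribosomal proteins were lower in IP than in the input of the whole striatum. How far this reflects their binding to ribosomes was not tested. With Rpl22 left out, 75 cytosolic ribosomal protein genes were tested, 72 were lower, 45 of them by at least 2-fold, and none was higher (median -1.12, and -1.28, -1.20, -0.98 and -1.07 in mice 1 to 4). Rps12 lay at 7.52, 7.83, 7.61 and 7.35 in input and at 5.23, 5.51, 5.46 and 5.03 in IP (fall 2.27, SE 0.055, adjusted p = 4.13e-10). Rplp1 fell by 2.19 and Rps29 by 1.97. The 3 genes that did not pass were Rpl7a (-0.12), Rpl18 (-0.022) and Rpl26 (0.33). Near-identical pseudogenes of ribosomal proteins can share reads with them, and the labels do not say how such reads were counted.

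Most vertebrate ribosomal protein messages begin with a C followed by a run of pyrimidines (the TOP motif), through which the growth pathway mTOR controls their translation. The sequences at the annotated start sites of 5 ribosomal protein genes with such a run and a fold among the lowest of those with one are printed to show this feature. Each line gives 10 bases before and 20 from the annotated RefSeq start (GRCm38.p6) on the gene's strand. The capitals mark the longest run of C and T that opens with C within 5 bases of the start.
Rps21, chr2:180257369-180257398, plus strand: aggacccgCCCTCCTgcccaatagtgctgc
Rps24, chr14:24490668-24490697, plus strand: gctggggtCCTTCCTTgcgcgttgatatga
Rpl12, chr2:32961702-32961731, plus strand: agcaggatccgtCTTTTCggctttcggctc
Rps27, chr3:90213629-90213658, minus strand: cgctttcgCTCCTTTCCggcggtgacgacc
Rpl35a, chr16:33056472-33056501, plus strand: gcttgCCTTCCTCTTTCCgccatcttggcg
These genes fell by 1.81, 1.70, 1.58, 1.56 and 1.53 on the log2 scale, in that order. A run of at least 6 was found in 25 of the 55 ribosomal protein genes with a promoter sequence (45.5%), against 1608 of 12520 other genes tested (12.8%). Within the ribosomal protein genes, the median fold was -1.20 with the run and -1.1 without it, and in the other genes 0.0030 and 0.017. Among 24 translation factors and other genes whose messages are known to carry the TOP motif, 17 were lower and 6 higher (median -0.39). Eef1b2, a translation elongation factor, fell by 1.03 on the log2 scale, and Vim, an intermediate filament that astrocytes express strongly, rose by 2.89.

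Other machinery moved little. Of 77 mitochondrial ribosomal protein genes, 36 were higher and 16 lower, with a median of 0.15 that turned to -0.13 with total reads. Aminoacyl-tRNA synthetases were higher in 19 of 21 cases (median 0.40) and proteasome genes in 26 of 31 (median 0.29), none of either list by 2-fold, and with total reads these counts were 11 and 7. In the secretory pathway 22 of 38 genes were higher and 4 lower (median 0.37), and with total reads 18 and 14. Canx, a chaperone of the endoplasmic reticulum, rose by 1.19, Stt3b, a subunit of the glycosylation enzyme, by 1.14 and Pdia3, a disulfide isomerase, by 1.03. The spliceosome list had 16 of 37 genes higher and 9 lower with a median of 0.12 that turned to -0.16 with total reads. Snrnp70, a protein of the U1 particle, fell by 1.16.

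Among 216 families of genes with a shared symbol stem and at least 10 members tested, the guanylate-binding proteins (Gbp), GTPases that interferon induces, had the highest median fold (2.74). All 10 Gbp genes tested were higher, 9 of them by at least 2-fold. Gbp2 lay at 6.37, 6.70, 6.62 and 7.74 in input and at 9.01, 9.91, 10.08 and 10.48 in IP (rise 3.01, SE 0.12, adjusted p = 5e-09). Gbp3 rose by 2.70, Gbp6 by 3.16, Gbp10 by 3.11, Gbp8 by 2.78, Gbp4 by 2.50, Gbp7 by 2.23 and Gbp9 by 2.14, and Gbp11 by 0.63. In all 10 genes the input of mouse 4 was the highest input, and mouse 1 had the lowest IP library. The members lie in clusters on chromosomes 3 and 5 and resemble each other, so reads may be shared among them.

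Promoter sequences were at hand for the 4 members on chromosome 3. Each holds a pair of GAAA with any 2 bases between them, the core of the site that interferon regulatory factors bind, in the 250 bases before the start site. The motif was searched on both strands, and the copy nearest to the start is in capitals, where it reads as its reverse complement. Each line shows 50 bases on the plus strand, which is the gene's strand (RefSeq, GRCm38.p6).
Gbp5, chr3:142496749-142496798: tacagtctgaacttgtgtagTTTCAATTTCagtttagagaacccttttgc
Gbp2, chr3:142620584-142620633: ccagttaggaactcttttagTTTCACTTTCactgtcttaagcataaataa
Gbp3, chr3:142559985-142560034: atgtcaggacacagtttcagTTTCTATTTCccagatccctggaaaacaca
Gbp7, chr3:142530263-142530312: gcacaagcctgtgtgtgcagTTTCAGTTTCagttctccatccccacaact
The copy begins 165 bases before the start in Gbp5, 59 in Gbp2, 39 in Gbp3 and 53 in Gbp7. Over all genes tested with a promoter sequence, 403 of 12575 hold the motif (3.20%), and it was about as frequent among genes at least 2-fold higher (81 of 2081, 3.89%) as among those at least 2-fold lower (83 of 2034, 4.08%).

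The other families with high medians were the stem S, which holds the S100 genes (1.84), aldehyde dehydrogenases (Aldh, 1.70), Frizzled receptors (Fzd, 1.70), the Trp stem, which holds TRP channels (1.45), Parp (1.38), axonemal dyneins (Dnah, 1.14) and Nek kinases (1.1). The lowest medians were those of the small nucleolar RNAs Snora (-3.42) and Snord (-2.52), C-type lectins (Clec, -2.50) and leukocyte antigens (Cd, -2.25). Next came miRNA genes (Mir, -2.21), Toll-like receptors (Tlr, -2.13), chemokines (Ccl, -2.05) and clustered histones (Hist, -1.58). Of all snoRNA genes tested, 19 of 37 passed the filter through the inputs alone, as did 27 of 62 miRNA genes, so their folds had to be low. Promoters of genes that fell by at least 2-fold held a median of 8 CpG pairs in 250 bases against 12 in those that rose by at least 2-fold and 15 over all genes tested. In the astrocyte and microglia lists the medians were 4.5 (26 of 30 genes with a sequence) and 4 (15 of 20). These are descriptions with no test.

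The 4 mice gave closely matching differences. Over the 10067 genes with a mean of at least 3 log2 CPM in both fractions, the SD of the difference between mice had a median of 0.12 on the log2 scale, and it was under 0.5 for 99.8% of the genes. Across these genes, which are not independent replicates, the difference in each mouse correlated with the mean of the others with r of 0.976 to 0.992. The spread of the differences over genes in mouse 1 was 0.86 times that of the mean of the other mice, and in mice 2, 3 and 4 it was 1.08, 1.12 and 0.98 times.

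The genes that varied most were few and mostly moved with mouse 4. Besides Ddx3y, they were Mir6236, Fos, Slc9a9, Myrf, Itgb4, Ppp1r14a and Cpne7. Fos, an immediate early gene that activity induces, had differences of 0.58, 0.81, 0.23 and 1.77, and its mouse 4 input was the lowest of the inputs (3.37). Slc9a9, an endosomal sodium-proton exchanger, had differences of 0.46, 0.71, 0.53 and -0.65, with levels in mouse 4 of 2.16 in input and 1.5 in IP against 3.21 to 4.47 in the other 6 libraries. It did not pass the test over 4 mice and did without mouse 4 (fold 0.57, adjusted p = 0.000423). Ppp1r14a and Itgb4 were highest in mouse 4 IP, as the oligodendrocyte genes were. Cpne7, a calcium-binding protein, divided the mice in another way, with differences of 1.70, 1.34, 0.54 and 0.57.

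The same difference was taken in the 4 PMCA mice to see where the control mice were particular. Of 16734 genes tested, 465 differed between the treatments in their IP to input difference (2.78%), 187 with a higher and 278 with a lower value in control mice. The count was 92 without control mouse 2 and 218 to 270 without another control mouse. Of the astrocyte list, 2 of 30 genes differed, Atp1b2 (control fold 4.06, PMCA fold 4.6) and Kcnj10 (3.59 and 3.96), both lower in control mice. Interneuron genes had a higher fold in control mice in 7 of 17 cases, among them Nos1 (3.48 against 3.01, adjusted p = 0.0162) and Chat (2.50 against 1.98, adjusted p = 0.0066). Genes that many neurons share had a higher value in control mice in 8 and a lower one in 1 of 26 cases. Microglial genes fell further in control mice in 8 of 20 cases, and nuclear noncoding RNAs in 6 of 10. Rpl22 itself had a higher fold in control mice (2.20 against 1.39, adjusted p = 0.0026), and its part in the other differences was not tested.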

How the data were processed

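RNA of 4 control mice was measured by RNA-seq in an input and an IP library each. Per the labels' protocols, RNA was extracted with an RNeasy kit, and stranded TruSeq libraries with RiboZero Gold depletion were sequenced on a HiSeq4000. STAR, HTSeq, edgeR, limma and mm10 are named in the submitters' processing notes, and no source used here gives their versions, roles or settings, the annotation or the use of strand. The authors deposited log2 CPM per gene. These values were traced back to whole reads, which 100% of values in each library gave within 0.001, with a prior count of 0.25 and a scaling factor per library, and the depths come from these reads.

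The deposited log2 CPM were tested with limma 3.58.1 in R 4.3.3, with the mouse as a block, empirical Bayes with a mean-variance trend and Benjamini-Hochberg adjustment over all genes tested (called at an adjusted p under 0.05). A gene was tested if it reached 10 reads at the median library size in at least 4 of the 8 libraries, which left out 4635 of 20730 gene rows. The difference between treatments was tested with limma on the IP minus input difference of each of 8 mice, 4 control and 4 PMCA. Mouse numbers in the titles pair the libraries. Over 13061 genes, same-mouse deviations from the group means correlated at 0.300 to 0.672, and those of different mice at -0.473 to 0.190. Deviations from a group mean cancel out within the group, so positive same-mouse values push those of different mice down. Part of this contrast is therefore built in. The procedure was tested on simulated data, where it recovered 100% of genes changed by 2 on the log2 scale. It recovered 93.1% and 97.06% of those changed by -1 and 1, and 36.11% and 33.33% of those changed by -0.5 and 0.5. The simulation changed 29 to 36 genes at each size and direction among 16095, whereas 12785 genes were called in the data. Fewer changed genes make the adjustment stricter, so the recovery of small folds does not carry over to the data. For IP against input, the p-values rest on the spread between these 4 mice, with each gene's variance drawn toward the trend over all genes. Those of the treatment difference rest likewise on the 8 mice.

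Names were matched to RefSeq (GRCm38.p6) by symbol for 19546 rows and by synonym for 1057, with 127 unmatched. In the files 26 names look like dates and 2 are repeated. The members and gene lists were chosen with earlier results of these data known. Named genes are the 12 largest rises and falls measured on both sides, up to 3 highest and 3 lowest of each list, the 8 most variable between mice, the families of highest and lowest median, and genes the study turns on. Genes with most reads per kilobase were not named, because no exon lengths were used here. Other list members that complete a role group, and Slc1a3, Aqp4, Glul, Mbp, Terc, Xist, Ppp1r1b, Malat1 and Snhg11, were chosen after values were seen. Alternatives were the block, the trend, the scaling, the prior count, the filter, voom weights on the recovered reads, and leaving out each mouse.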

Additional observations from a re-analysis of the deposited data

Results flagged for a closer look

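Of 394 groups of 4 libraries or mice checked, 25 held a value far from the other 3 (Dixon's test), where chance gives about 1 in 20. The mouse 4 input was high for 11 genes. It lay at 7.5 log2 CPM for C1qb (others 6.94 to 7.02), 8.07 for C1qa (7.41 to 7.46), 6.19 for Tmem119 (5.67 to 5.69) and 7.83 for Csf1r (7.17 to 7.22). It lay at 6.28 for Itgam (5.53 to 5.64), 6.36 for Laptm5 (5.66 to 5.78) and 7.82 for Aqp4 (7.29 to 7.34). It lay at 2.17 for Runx1 (1.41 to 1.51), 6.57 for Vim (5.38 to 5.56), 7.01 for Snrnp70 (6.71 to 6.75) and 6.02 for Gbp6 (5.09 to 5.22). The mouse 1 IP library was low for Cx3cr1 (1.0, others 1.40 to 1.47), Rpph1 (6.28, others 6.38 to 6.4), Lgr6 (3.58, others 3.97 to 4.04) and Aqp4 (10.40, others 10.73 to 10.80). Single libraries also stood apart for Matn4 in the mouse 2 input (2.53, others 3.05 to 3.12), Foxj1 in mouse 4 IP (7.34, others 6.90 to 6.95) and Mfng in mouse 3 IP (-1.39, others -0.55 to -0.52). So did Grin3a in mouse 4 IP (6.03, others 6.22 to 6.26) and Prpf19 in mouse 2 IP (7.72, others 7.63 to 7.64). Mouse 4 also stood apart for Ddx3y, at -1.64 in input and -3.72 in IP, and for Xist in IP, at 4.98. The median fold of the microglia list was -5.11 in mouse 3 (others -5.40 to -5.37), and that of the mural list was -2.31 in mouse 4 (others -1.66 to -1.53).

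Of 181 named genes, many of them chosen by a large fold, 20 had a fold that differed between control and PMCA mice. This is by the test of the difference itself (limma, adjusted over all genes tested). Among all 16734 genes tested, 465 differed (2.78%), and 92 did so without control mouse 2. The control fold minus the PMCA fold was -0.54 for Atp1b2 (SE 0.11, adjusted p = 0.0322) and -0.37 for Kcnj10 (SE 0.091, adjusted p = 0.0490), where both treatments had a rise. It was -1.0 for Rmrp (SE 0.18, adjusted p = 0.0187), -1.10 for Malat1 (SE 0.21, adjusted p = 0.0239) and -1.12 for Snhg11 (SE 0.15, adjusted p = 0.00478), noncoding RNAs with a larger fall in control mice. Among microglial genes it was -0.47 for C1qa (SE 0.099, adjusted p = 0.0319), -0.83 for Csf1r (SE 0.11, adjusted p = 0.00367) and -1.25 for Itgam (SE 0.13, adjusted p = 0.00132). For Rpl22 it was 0.81 (SE 0.10, adjusted p = 0.00260). Among imprinted noncoding RNAs it was -1.18 for Mirg (adjusted p = 0.0380), -0.57 for Rian (adjusted p = 0.0374) and -1.03 for Meg3 (adjusted p = 0.0123). Among neuronal genes it was 0.47 for Nos1 (adjusted p = 0.0162), 0.52 for Chat (adjusted p = 0.00660), 0.49 for Slc17a8 (adjusted p = 0.0239), 1.03 for Pvalb (adjusted p = 0.00492) and 0.48 for Nefm (adjusted p = 0.0410). It was 1.59 for the mural gene Vtn (adjusted p = 0.000593), -1.01 for Runx1 (adjusted p = 0.0481) and 0.29 for the spliceosome gene Snrnp200 (adjusted p = 0.0491).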

How the results depend on the processing

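Without the replicate block, which joins the libraries of a mouse, 6288 genes were higher and 6183 lower, 2678 and 2795 of them by at least 2-fold, against 6432, 6353, 2686 and 2809 with it. With a mean of at least 1 log2 CPM required, the genes at least 2-fold lower were 1352 and those at least 2-fold higher 2189, with fewer genes tested (13061), and the medians of the leptomeningeal list and of miRNA genes turned to 0.51 and 1.31. With total reads as the scaling, the medians of the bicarbonate (-0.059), spliceosome (-0.16), mitochondrial ribosomal protein (-0.13) and protein-coding lists (-0.24) turned negative, and 4654 genes were higher and 8590 lower. With no filter the protein-coding median was -0.013, and 47.9% of calls were higher. Leaving out each mouse gave 6049 to 6375 higher and 5842 to 6372 lower genes, and 2624 to 2766 and 2739 to 2970 by at least 2-fold. The count of genes that differ between control and PMCA mice was 272 with no filter and 92 to 270 with a mouse left out, and the cause was not tested. Of 2152 values of 181 named genes under the alternatives, 2139 kept their side of the threshold, 9 newly passed it and 4 no longer did. The sign turned in 10 values of 5 genes, 0 of them called in either fit. With a prior count of 2 the microglia and endothelial medians were -5.35 and -3.79, against -5.40 and -3.87.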
